A study of Homo sapiens with 6 samples.

Results

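Ligands with which a tumor cell restrains lymphocytes and macrophages, and enzymes that make extracellular adenosine or consume tryptophan, were followed as 10 genes: CD274, PDCD1LG2, CD276, VTCN1, PVR, LGALS9, CD47, ENTPD1, NT5E and IDO1. They are the rows of the count table that carry these symbols, 10 of 60708 genes. Bulk RNA sequencing compared VC and VHL-KO cells of Caki-1, an established human clear cell renal carcinoma line with an intact VHL gene, 3 samples of each. VC cells had a wild-type genotype and were infected with the lentiviral CRISPR vector alone, and VHL-KO cells were infected with the same kind of vector carrying an sgRNA against VHL. Infected cells were selected with puromycin and the knockout lines were clonal, so that the edit and other properties of a selected clone cannot be told apart. Reads counted on genes numbered 31789923, 28463579 and 34881739 for VC, against 29139722, 22805385 and 22628246 for VHL-KO. Whether the samples of a group came from separate cultures was not given in the sources used here, and the p-values measure only the spread between these samples, which may be technical.

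PD-L1 and PD-L2, the proteins of CD274 and PDCD1LG2, bind PD-1 on T cells and dampen their response, and interferon acting through JAK kinases and IRF1 is the best known inducer of CD274. CD47 binds SIRPA on macrophages and inhibits phagocytosis. Extracellular ATP, an alarm signal, is degraded to AMP by CD39 (ENTPD1) and from AMP to adenosine by CD73 (NT5E), and adenosine suppresses lymphocytes through its receptors. VHL marks the HIF alpha subunits for degradation, and clear cell renal carcinomas commonly lose it.

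VHL mRNA itself was examined first. It stood at 42.6, 37.8 and 40.1 CPM (counts scaled to a common library size, with library sizes adjusted by the TMM method) in the 3 VC samples and at 34.8, 30.4 and 30.5 CPM in the 3 VHL-KO samples. All VHL-KO samples lay below all VC samples, and the difference was modest. The log2 fold change was -0.33 ± 0.11 (SE, n = 3 and 3), with an adjusted p of 0.0109 in edgeR, and a count of reads per gene does not read the edit. That call was lost without VC replicate 1 (adjusted p = 0.0862), without VHL-KO replicate 2 (0.0621), with upper quartile factors (0.0905) and with GC and length offsets, which remove from the counts their trend with transcript composition (0.269). Over its 15 alternatives the adjusted p ran from 0.000292 to 0.269.

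The HIF target genes separated the groups more clearly than VHL did. Of 20 HIF target genes, all tested, 16 rose, 3 fell and 1 did not pass, with a median log2 fold change of 1.32 against -0.01 over all 17401 tested genes. Of the HIF target genes 95% passed, against 59.7% of all tested genes. CA9, a carbonic anhydrase, had 0, 0 and 2 counts in the VC samples against 288, 247 and 233 in the VHL-KO samples. The ratio of summed counts was 562 with a 95% counting interval of 155 to 4646. CA9 entered the test only through VHL-KO samples, and VC replicate 3 alone held its VC counts. Its fitted log2 fold change of 8.85 became 11.2 without that sample. NDRG1 rose by 6.03 on the log2 scale, ENO2 by 4.27, CA12 by 3.94 and ADM by 3.55. The exceptions were EGLN3 (log2 fold change -1.26), PFKFB3 (-0.43) and EGLN1 (-0.41), which fell, and HK2 (0.09), which did not pass.

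Some markers of renal epithelium and of the line were abundant and others were low or absent. PAX8 averaged 427 CPM in VC and 614 CPM in VHL-KO cells, and KRT8, KRT18 and VIM were abundant in every sample, whereas PAX2 and LRP2 had 0 counts in all 6, CDH1 had at most 3 in any, and KRT19, EPCAM, CUBN, MME and GGT1 averaged under 2 CPM in both groups. CDH16, a kidney cadherin, rose from 6.75 to 72.2 CPM (log2 fold change 3.42). EGFR fell from 129 to 63.6 CPM (log2 fold change -1.02), and EPCAM (-1.42) and CDH2 (-0.45) also fell. Of these 18 renal markers, 15 were tested, 8 rose, 3 fell and 4 did not pass, with a median log2 fold change of 0.31. Of those tested, 73.3% passed, against 59.7% of all tested genes. The riser GGT1 entered the test only through VHL-KO samples. The summed level of the 18 was 8681, 9631 and 8539 CPM in VC and 9543, 8969 and 9371 CPM in VHL-KO cells, and VIM was the most abundant. Of 21 markers of blood, immune, endothelial and fibroblast cells, 14 were too low to test, 3 rose, 2 fell and 2 did not pass, with a median of 0.26 among those tested. Of those tested, 71.4% passed. The summed level of the 21 was 45.8, 50.2 and 39.0 CPM in VC and 36.5, 33.6 and 30.3 CPM in VHL-KO cells, most of it from COL1A1. CD3E, CD3D, CD4, MS4A1, NKG7, GNLY and LUM had 0 counts in every sample, and PTPRC had 1 count in VC replicate 3, 1 in VHL-KO replicate 1 and 0 in the others. The fallers were COL1A1 and PDGFRB, a receptor of fibroblasts and pericytes, which went from 8.90 to 2.32 CPM (log2 fold change -1.94). The risers were CD14, KLRD1 and PECAM1, of which KLRD1 and PECAM1 entered the test through 1 VHL-KO sample each. Of these 3 only CD14, a lipopolysaccharide receptor of myeloid cells, passed 1 CPM in any sample, at a mean of 1.56 CPM in VC and 4.30 CPM in VHL-KO cells.

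Among the 10 genes, 9 had at least 10 reads in some sample and were tested, and 6 of these passed an adjusted p of 0.05, against 59.7% of all tested genes. ENTPD1, VTCN1 and CD276 rose, where 28.5% of tested genes rose, and CD274, PDCD1LG2 and NT5E fell, where 31.2% fell. A change of at least 2-fold was found for 4 of the 9, against 26.2% of tested genes, and the groups did not overlap for 6 of the 9, against 64.7%. What follows describes each gene and not the 10 as a set. PDCD1LG2 entered the test only through VC samples and VTCN1 only through VHL-KO samples. CD47, PVR and IDO1 did not pass, and LGALS9 was too low to test.

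**Figure D1:**
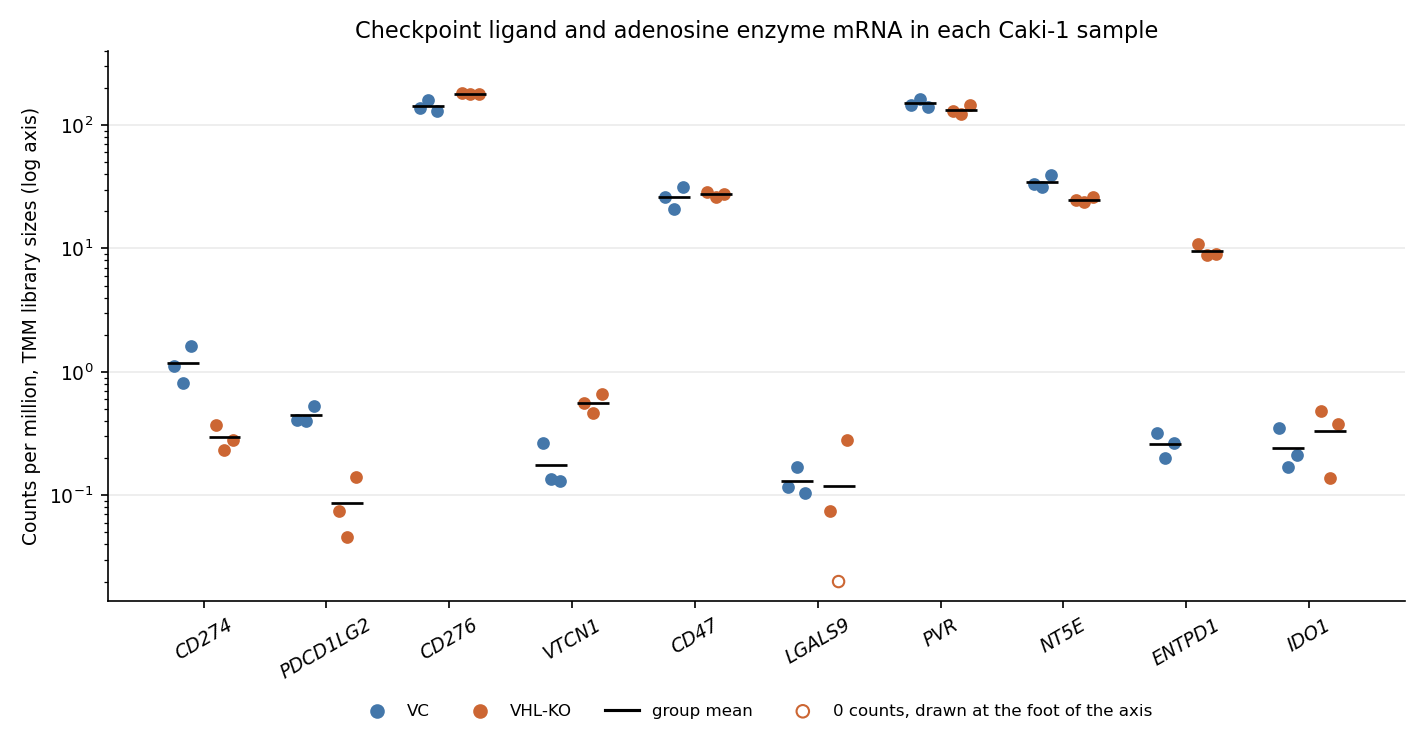
CPM (TMM library sizes, log axis) of the 10 genes in each sample, VC in blue and VHL-KO in orange, with group means as black bars and a count of 0 drawn as an open circle at the foot of the axis. ENTPD1 moves from a mean of 0.262 CPM in VC to 9.57 CPM in VHL-KO cells, CD274 and PDCD1LG2 lie lower in VHL-KO cells, and CD47, PVR, LGALS9 and IDO1 overlap between the groups.

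The PD-1 ligands were the members that fell furthest. CD274 had 38, 24 and 61 counts in the VC samples, in order of replicate, against 10, 5 and 6 in the VHL-KO samples, or 1.11, 0.807 and 1.61 CPM against 0.374, 0.232 and 0.281 CPM. Every VHL-KO sample lay below every VC sample, VC replicate 3 was the highest of all, and the level was low in both groups. The log2 fold change was -1.97 ± 0.45 (SE, n = 3 and 3; 95% interval -2.89 to -1.05) with an adjusted p of 0.00054 in edgeR, which is 3.91-fold lower. CD274 ranked 533 from the lowest fold change among 17401 genes. In bulk RNA, fewer cells that express a gene and less RNA per cell cannot be told apart.

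PDCD1LG2, whose product is the other ligand of PD-1, had 14, 12 and 20 counts in the VC samples against 2, 1 and 3 in the VHL-KO samples. The groups did not overlap, but no VHL-KO sample had more than 3 counts. Summed over the samples, 46 counts against 6 gave a VC to VHL-KO ratio of 5.24 after scaling, with a 95% counting interval of 2.23 to 15.0. The fitted log2 fold change was -2.32 ± 0.75 with an adjusted p of 0.0101 in edgeR. Without VC replicate 3 the adjusted p rose to 0.0609, the highest of a range that began at 0.00565 over the 14 alternative analyses.

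CD274 and PDCD1LG2 lie next to each other on chromosome 9 (GRCh38, plus strand, CD274 at 5450503 to 5470566 and PDCD1LG2 at 5510531 to 5571282), so their surroundings were examined. Within 500 kb of CD274, 9 genes were tested, of which 2 rose, 3 fell (PDCD1LG2 among them) and 4 did not pass. Their median log2 fold change was -0.27. Over all tested genes, 28.5% rose, 31.2% fell and the median was -0.01. The nearest on the lower side, PLGRKT, a plasminogen receptor gene 12.6 kb away, had a log2 fold change of -0.64 and fell (adjusted p = 0.000885 in edgeR). RIC1, the nearest beyond PDCD1LG2 at 57.7 kb, fell by 0.81 (adjusted p = 3.69e-05). JAK2, the kinase of the interferon gamma receptor 321 kb from CD274, had a log2 fold change of -0.39 that did not pass (0.20 with GC and length offsets), whereas ERMP1, 279 kb away on the other side, rose by 0.32 with overlapping groups. ENSG00000286162, which overlaps both CD274 and PDCD1LG2, did not pass (log2 fold change 0.24). IGHEP2, 336 kb from CD274, rose by 2.69 from few reads (adjusted p = 0.00629 in edgeR), having entered the test only through VHL-KO samples. VHL-KO replicate 3 lay inside its VC range. The IGHEP2 call was lost without VHL-KO replicate 2 (0.0517) and with GC and length offsets and the replicate block (0.0688). Within 500 kb of PDCD1LG2, 10 genes were tested, of which 3 rose and 4 fell, the other pair member among the latter. RANBP6, 440 kb from PDCD1LG2, fell by 1.93, and KIAA2026, 310 kb from it, rose by 0.69. These last 4 genes were named after their values were seen. JAK2 passed as lower without VC replicate 2 (adjusted p = 0.0163) and with library size alone (log2 fold change -0.59, adjusted p = 0.0235), in a range of 0.0163 to 0.504 over its alternatives. The number of copies of this region was not measured here.

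**Figure D2:**
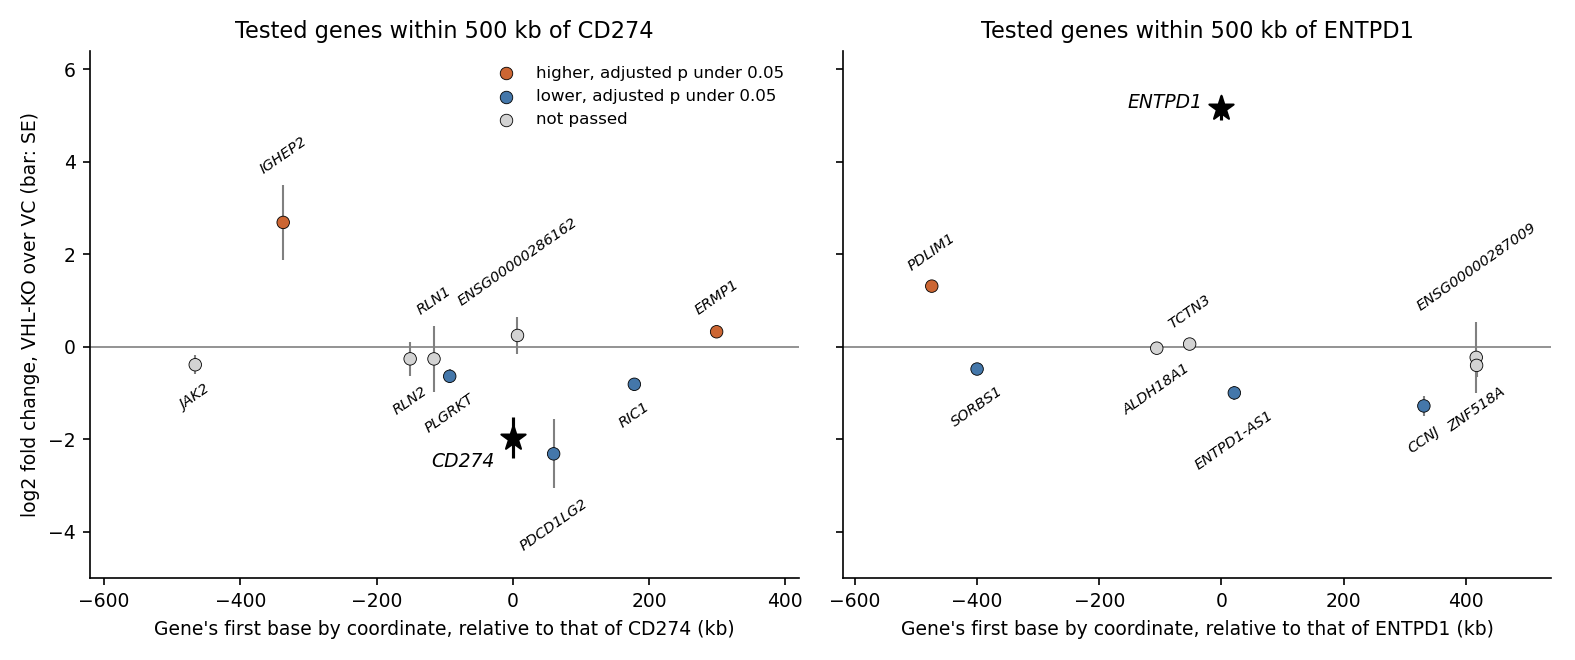
Log2 fold change (VHL-KO over VC, bars are SE) of every tested gene within 500 kb of CD274 (left) and of ENTPD1 (right), against the distance between first bases by coordinate in kb. Orange genes rose, blue genes fell, grey genes did not pass, and the star is the named member. CD274 and PDCD1LG2 lie at -1.97 and -2.32, the nearest genes on either side of the pair, PLGRKT and RIC1, at -0.64 and -0.81, and JAK2 at -0.39, and ENTPD1 stands at 5.16 above neighbors that lie between -1.28 and 1.31.

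The promoter of CD274 is shown because this gene is known to respond to interferon. RefSeq promoter windows (250 bases before to 50 bases after a start site, GRCh38.p14) were in the table used here for 8 of the 10 genes, and it held none for PDCD1LG2 and IDO1. Windows were searched on both strands for 2 copies of GAAA with 2 bases of any kind between them, the doubled core of an IRF site, which was found in 3.6% of 34796 windows, and for the hypoxia response cores ACGTG (21.4%) and GCGTG (36.4%), at least 1 of which was in 48.4%. Capitals mark matches. In the CD274 window, chr9:5450292-5450591 on the plus strand, the doubled GAAA core matched on the opposite strand at bases -208 to -199 and -202 to -193 from the start, 2 overlapping matches. Neither hypoxia core was in this window.
CD274: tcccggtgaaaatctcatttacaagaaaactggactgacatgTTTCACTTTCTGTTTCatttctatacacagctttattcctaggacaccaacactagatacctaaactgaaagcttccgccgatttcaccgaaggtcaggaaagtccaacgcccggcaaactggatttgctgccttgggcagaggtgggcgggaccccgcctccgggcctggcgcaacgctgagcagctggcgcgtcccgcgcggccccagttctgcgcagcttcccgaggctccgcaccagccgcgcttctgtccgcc
A match is a stretch of letters, and no binding was measured.

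Regulators of CD274 transcription and of PD-L1 stability gave a mixed picture. Of 36 such genes, 35 were tested, 8 rose, 15 fell and 12 did not pass, with a median log2 fold change of -0.20 against -0.01 over all tested genes. Of those 35, 65.7% passed, against 59.7% of all tested genes. The mRNA of HIF1A, which encodes the alpha subunit of HIF-1, fell by 2.35 on the log2 scale, from 65.6 to 12.9 CPM. This was the largest change of the list (adjusted p = 6.42e-13 in edgeR). The mRNA of EPAS1, which encodes HIF-2 alpha, fell by 0.56, from 182 to 123 CPM. These counts do not measure protein, and the study reported from immunoblots that both alpha subunits accumulated in Caki-1 cells after VHL loss. IRF1, the interferon-induced activator of CD274, averaged 44.2 CPM in VC and 33.5 CPM in VHL-KO cells and fell by 0.40 (adjusted p = 0.00329).

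Other genes on that list that passed included MYC, a transcription factor, which fell by 0.82, NFKB1, a subunit of NF-kappa B, which fell by 0.70, and CUL3, the scaffold of an E3 ubiquitin ligase, which fell by 0.94. SIGIRR, a receptor that restrains interleukin-1 signaling, rose by 0.73. The NFKB1 and SIGIRR calls were lost with GC and length offsets. CMTM6, which keeps PD-L1 at the cell surface, fell by 0.48 (adjusted p = 0.00408 in edgeR), and this call was lost without VC replicate 3 (0.055) and turned to a log2 fold change of 0.03 with GC and length offsets (adjusted p = 0.75, the highest of a range that began at 2.8e-05). Over the alternatives, the direction of CD274 held in all 14, with log2 fold changes from -2.18 to -1.49, the smallest with GC and length offsets and the replicate block.

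CD276 and VTCN1, which encode the B7 family proteins B7-H3 and B7-H4, both rose, at levels far apart. CD276 stood at 137, 158 and 130 CPM in VC and at 181.5, 179.5 and 178.7 CPM in VHL-KO cells. The VHL-KO samples were close together and above all VC samples. The log2 fold change was 0.34 ± 0.09 (SE, n = 3 and 3) with an adjusted p of 0.00252 in edgeR, which is 1.27-fold. This small difference depended on the scaling, being 0.15 with library size alone (adjusted p = 0.119) and 0.03 with GC and length offsets (adjusted p = 0.66), over a range of adjusted p from 5.46e-06 to 0.662. The transcript of CD276 has 60.0% GC, and tested genes in the highest of 4 bins of near-equal size of GC content (55.8% to 85.5%) had a median log2 fold change of 0.42, against -0.43 in the lowest bin (26.03% to 41.9%). What lies behind this trend was not tested.

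VTCN1 had 9, 4 and 5 counts in the VC samples against 15, 10 and 14 in the VHL-KO samples. No VC sample reached 10 counts, every VHL-KO sample did, and the groups did not overlap. A log2 fold change of 1.64 ± 0.62 came with an adjusted p of 0.0262 in edgeR, and the ratio of summed counts was 3.17 with a 95% counting interval of 1.77 to 5.89. The call was lost without VC replicate 2 (adjusted p = 0.0747), VC replicate 3 (0.105) or VHL-KO replicate 3 (0.0596), and adjusted p ran from 0.0118 to 0.105 over the 14 alternatives.

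The neighbors of these genes did not share a direction. Next to CD276, NPTN on the lower side fell by 1.53 and STOML1 on the upper side rose by 0.86, and of 4 tested genes within 500 kb 1 rose and 1 fell. Next to VTCN1, TRIM45 had a log2 fold change of 0.16 that did not pass, MAN1A2 rose by 1.13, and of 5 tested genes 1 rose and 1 fell. Over all tested genes, 28.5% rose and 31.2% fell.

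PVR, or CD155, a ligand of the inhibitory receptor TIGIT and the activating receptor CD226, was abundant, and its groups overlapped in CPM. It stood at 146, 163 and 141 CPM in VC and at 129, 123 and 145.5 CPM in VHL-KO cells. VHL-KO replicate 3 lay within the VC range and the others lay below it. Its log2 fold change was -0.18 ± 0.10 with a 95% interval of -0.37 to 0.02 and an adjusted p of 0.111 in edgeR. It passed as lower with library size alone (-0.37, adjusted p = 0.00128) and with GC and length offsets (-0.15, adjusted p = 0.0352), and adjusted p ran from 0.00128 to 0.595 over 15 alternatives.

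LGALS9, which encodes galectin-9, a ligand of TIM-3, had 4, 5 and 4 counts in the VC samples against 2, 0 and 6 in the VHL-KO samples. The groups overlapped and no sample reached 10 counts. The VHL-KO to VC ratio of the summed counts was 0.900 with a 95% counting interval of 0.323 to 2.34, so that a difference in this range was not detectable at this depth. LGALS9 has near-identical copies, LGALS9B and LGALS9C, and reads that fit more than 1 place were left out upstream, which makes its level uncertain.

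**Figure D3:**
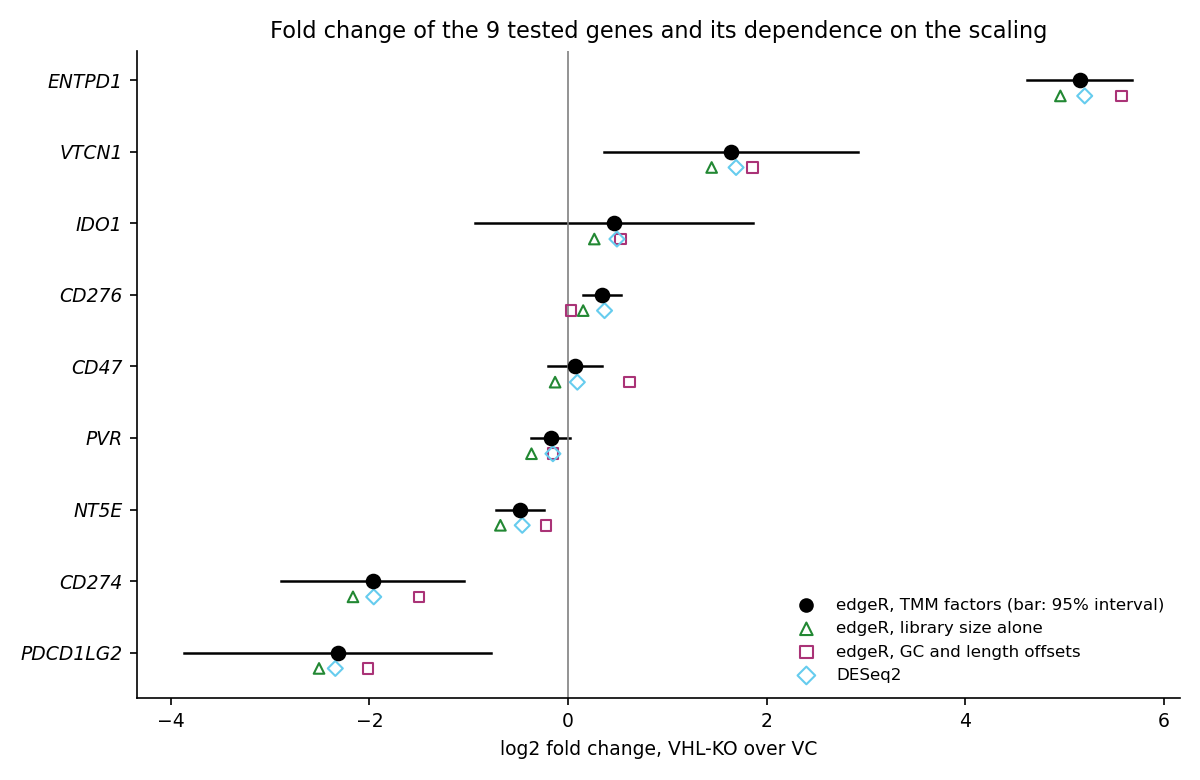
Log2 fold change, VHL-KO over VC, of the 9 tested genes in edgeR with TMM factors (black, bars are 95% intervals), and below each the same value with library size alone (triangle), with GC and length offsets (square) and in DESeq2 (diamond). ENTPD1 lies near 5.16 and CD274 at -1.97 with every marker on the same side of 0, whereas CD276 moves from 0.34 to 0.03 with the offsets, and CD47 from 0.07 to 0.62 with the offsets and to -0.13 with library size alone.

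The other B7, butyrophilin, nectin, galectin and TNF-family ligands and adhesion partners showed changes in both directions. Of 36 genes, 26 were tested, 11 rose, 6 fell and 9 did not pass, with a median log2 fold change of 0.22. Of those tested, 65.4% passed, against 59.7% of all tested genes. CD80, CD86, HHLA2, TMIGD2, TNFSF18 and VSIG4 had 0 counts in all samples. CD24, a glycoprotein that binds Siglec-10 on macrophages, rose from a mean of 102 CPM to 521 CPM, by 2.35 on the log2 scale (adjusted p = 1.63e-16 in edgeR), with 13951, 10971 and 11359 counts in VHL-KO cells against 3357, 2955 and 4125 in VC. TNFSF14, or LIGHT, a ligand of TNFRSF14, rose by 1.89, and BTN3A2, a butyrophilin, rose by 1.17. TNFRSF14 itself was low, with 26, 16 and 18 counts in the VC samples against 14, 6 and 6 in the VHL-KO samples, and did not pass (adjusted p = 0.275).

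The nectins, adhesion proteins of the PVR family, did not share a direction. NECTIN2, which like PVR binds TIGIT and CD226, had 2993, 2774 and 2776 counts in the VC samples against 3669, 3036 and 3128 in the VHL-KO samples, and rose by 0.74 (adjusted p = 5.68e-07 in edgeR). On the CPM scale its groups did not overlap. NECTIN1 fell by 1.51, with 586, 574 and 647 counts in the VC samples against 143, 127 and 163 in the VHL-KO samples, and NECTIN3 fell by 0.94. With GC and length offsets NECTIN3 was at -0.33, and with the replicate block added its call was lost (adjusted p = 0.0508). NECTIN4 was low, with a log2 fold change of 0.56 that did not pass. LGALS1 was the most abundant gene of the list in both groups, and the summed level of the list was 1996, 2161 and 1966 CPM in VC and 3101, 3000 and 2950 CPM in VHL-KO cells. The receptors to which the ligands bind belong to lymphocytes and myeloid cells, and of 13 such receptors 11 were too low to test, 5 of them at 0 counts in every sample (PDCD1, CTLA4, CD28, TIGIT and ICOS). Of the 2 tested, SIRPA fell by 0.47 and TNFRSF9, at 0.05, did not pass, with a median of -0.21.

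CD47 was expressed at similar levels in both groups. It stood at 26.4, 20.7 and 31.3 CPM in VC and at 28.6, 26.1 and 27.5 CPM in VHL-KO cells. The VC samples spread widely and enclosed all VHL-KO samples. Its log2 fold change was 0.07 ± 0.13 with a 95% interval of -0.21 to 0.34 and an adjusted p of 0.678 in edgeR. Its direction depended on the analysis, being -0.13 with library size alone, -0.06 without VC replicate 2, and 0.62 with GC and length offsets, where CD47 passed as higher (adjusted p = 3.17e-06). At 38.4% GC its transcript is in the lowest of the 4 bins of GC content. Adjusted p ran from 8.21e-07 to 0.889 over 15 alternatives.

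The promoter window of CD47 is shown because it holds 4 hypoxia cores, the most of any window of the members, beside an mRNA level that was not separated by group. It spans chr3:108090982-108091281 on the minus strand, with ACGTG at bases -223 to -219 and GCGTG at bases -203 to -199, -78 to -74 and -16 to -12.
CD47: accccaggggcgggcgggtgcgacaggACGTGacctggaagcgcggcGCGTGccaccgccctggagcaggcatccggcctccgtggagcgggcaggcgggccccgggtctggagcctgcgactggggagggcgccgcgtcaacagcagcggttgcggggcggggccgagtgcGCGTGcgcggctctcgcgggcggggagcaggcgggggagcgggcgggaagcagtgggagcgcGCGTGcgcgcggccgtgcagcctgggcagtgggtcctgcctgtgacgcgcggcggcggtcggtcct
A core in these letters says nothing about whether HIF binds there in Caki-1 cells.

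Partners and modifiers of CD47 moved in both directions. Of 11 genes, 9 were tested, 5 rose, 3 fell and 1 did not pass, where 59.7% of all tested genes passed, and their median log2 fold change was 0.27. THBS1, thrombospondin-1, a secreted ligand of CD47, had 19262, 19167 and 27516 counts in the VC samples against 2129, 1794 and 2095 in the VHL-KO samples. The groups were far apart, and the log2 fold change was -2.89 ± 0.11 (adjusted p = 1.11e-16 in edgeR). LRP1, the receptor through which phagocytes recognize calreticulin, rose by 2.03, from 51.2 to 209 CPM, and CALR, calreticulin itself, rose by 0.48, from 1885 to 2634 CPM.

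ITGB3 and ITGAV, the subunits of an integrin that associates with CD47, went in opposite directions. ITGB3 rose 2.83-fold, from 85.1 to 241 CPM, and ITGAV fell by 0.57 but had a log2 fold change of 0.05 with GC and length offsets. QPCTL, the enzyme that modifies CD47 so that SIRPA can bind it, rose by 0.40 (adjusted p = 0.00742 in edgeR). That call was lost without VHL-KO replicate 1 (0.0606), with library size alone and with GC and length offsets, adjusted p then being 0.15 and 0.417, in a range of 0.000812 to 0.425. SIRPA, the receptor of CD47 and mainly a myeloid gene, was present in these cells at 133 CPM in VC and 96.1 CPM in VHL-KO cells.

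ENTPD1 showed the largest change of the 10 genes. The mRNA of CD39 had 11, 6 and 10 counts in the VC samples against 289, 192 and 192 in the VHL-KO samples, or 0.322, 0.202 and 0.263 CPM against 10.8, 8.89 and 9.001 CPM. The VC samples had few counts, the VHL-KO samples were close together, and the groups were far apart. The log2 fold change was 5.16 ± 0.26 (SE, n = 3 and 3; 95% interval 4.63 to 5.69) with an adjusted p of 2.3e-14 in edgeR, which is 35.6-fold. It ranked 50 from the highest among 17401 genes, and log2 fold changes ran from 4.96 to 5.57 over 14 alternatives, all past the threshold.

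ENTPD1 lies on chromosome 10 (GRCh38, plus strand, 95711779 to 95877266) and shares 40.0% of its exonic bases with ENTPD1-AS1 on the opposite strand. Whether the counting used strand was not given in the sources used here, and without strand, reads of a gene and of its antisense partner cannot be told apart. ENTPD1-AS1 had 379, 374 and 497 counts in the VC samples against 153, 123 and 149 in the VHL-KO samples. It fell by 1.00 in log2 units (adjusted p = 7.43e-06 in edgeR), the direction opposite to that of ENTPD1. This antisense gene was singled out after its values were seen. Of 8 tested genes within 500 kb, 1 rose, 3 fell and 4 did not pass, where 28.5% of all tested genes rose and 31.2% fell. TCTN3, the nearest on the lower side at 17.6 kb, had a log2 fold change of 0.06 that did not pass but passed as higher with GC and length offsets (0.34, adjusted p = 0.000519), and CCNJ, the nearest on the upper side at 166 kb, fell by 1.28.

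RefSeq gave 5 promoter windows for ENTPD1, and gene counts do not say which start site was used. The most upstream window was the only one of the 5 with a hypoxia core and is shown for that reason. It spans chr10:95693935-95694234 on the plus strand, with GCGTG at bases -224 to -220 and -185 to -181.
ENTPD1: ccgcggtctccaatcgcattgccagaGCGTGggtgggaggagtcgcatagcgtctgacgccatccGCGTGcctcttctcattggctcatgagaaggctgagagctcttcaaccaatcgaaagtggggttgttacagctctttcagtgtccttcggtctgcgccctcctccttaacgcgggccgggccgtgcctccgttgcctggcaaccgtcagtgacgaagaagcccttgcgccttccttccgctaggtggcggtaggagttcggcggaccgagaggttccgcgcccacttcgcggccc
This window ends 17.5 kb before the annotated start of ENTPD1 and contains the 5′ end of TCTN3, which is read from the minus strand (its 5′ end is base 95694143). The cores therefore belong to a stretch shared by both genes. The doubled IRF core was not found in any of the 5 windows.

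NT5E fell while ENTPD1 rose. The mRNA of CD73 stood at 33.4, 31.3 and 39.5 CPM in VC and at 24.6, 23.8 and 26.02 CPM in VHL-KO cells. All VHL-KO samples lay below all VC samples. The log2 fold change was -0.49 ± 0.12 (SE, n = 3 and 3) with an adjusted p of 0.000947 in edgeR, which is 1.40-fold lower. The call held in all 15 alternatives, with log2 fold changes from -0.68 to -0.22, the smallest with GC and length offsets. Of 4 tested genes within 500 kb 1 fell and none rose, where 31.2% of all tested genes fell and 28.5% rose. The nearest were LINC02535 on the lower side (log2 fold change -1.08) and SNX14 on the upper side (-0.16), and neither passed.

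The NT5E window is shown beside that of ENTPD1, the next enzyme of the same route. It spans chr6:85449833-85450132 on the plus strand and holds GCGTG once, read on the opposite strand, at bases 44 to 48 after the start.
NT5E: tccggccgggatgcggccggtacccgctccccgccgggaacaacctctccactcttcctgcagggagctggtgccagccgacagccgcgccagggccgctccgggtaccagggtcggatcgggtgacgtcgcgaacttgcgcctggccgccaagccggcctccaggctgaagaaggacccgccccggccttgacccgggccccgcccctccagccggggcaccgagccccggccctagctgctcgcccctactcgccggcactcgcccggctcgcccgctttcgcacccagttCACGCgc
The other windows held 1 match at most. CD276 had ACGTG in 1 of its windows, VTCN1 had GCGTG, LGALS9 had the IRF pair, and the PVR window had none of the motifs.

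The balance between both enzymes was then compared per length, in TPM, which divides counts by gene length and scales each sample to the same sum. NT5E exceeded ENTPD1 by 328-fold, 490-fold and 475-fold in the VC samples and by 7.19-fold, 8.47-fold and 9.15-fold in the VHL-KO samples. NT5E was thus the more abundant in every sample, and the groups did not overlap. ENTPD1 rose from 0.0626 ± 0.0143 TPM (SD, n = 3) to 1.69 ± 0.12 TPM, and NT5E was at 26.2 ± 3.67 TPM in VC and 13.9 ± 0.99 TPM in VHL-KO cells.

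The wider set of genes for adenosine and extracellular ATP moved in both directions. Of 31 genes, 21 were tested, 7 rose, 7 fell and 7 did not pass, with a median log2 fold change of 0.01. Of those tested, 66.7% passed, against 59.7% of all tested genes. The risers ENPP2 and CD38 entered the test only through VHL-KO samples. DPP4, or CD26, the protease that holds adenosine deaminase at the cell surface, rose from 28.1 to 148 CPM, by 2.39 on the log2 scale (adjusted p = 1.06e-15 in edgeR). ADA, adenosine deaminase, which converts adenosine to inosine, had 463, 454 and 523 counts in the VC samples against 523, 422 and 403 in the VHL-KO samples and rose by 0.45 (adjusted p = 0.00397), although not with library size alone (adjusted p = 0.0869, the highest of a range from 0.000429). P2RX4, an ATP-gated channel, rose by 2.12, from 11.2 to 48.9 CPM.

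Other genes of ATP breakdown and adenosine sensing differed in direction. ADORA1, an adenosine receptor with high affinity, averaged 86.2 CPM in VC and 111 CPM in VHL-KO cells and rose by 0.37 (adjusted p = 0.00344), but its call was lost with library size alone (0.12) and with GC and length offsets (0.485). ENTPD7, an intracellular relative of ENTPD1, fell by 1.66, from 29.1 to 9.22 CPM. ENPP1, which makes AMP from ATP and also cleaves cGAMP, had 185, 163 and 216 counts in the VC samples against 46, 64 and 47 in the VHL-KO samples and fell by 1.28 (adjusted p = 1.52e-05 in edgeR). ADORA2B, an adenosine receptor with low affinity, had 638, 533 and 702 counts in the VC samples against 184, 121 and 171 in the VHL-KO samples and fell by 1.43. In ENPP1 and ADORA2B every VHL-KO sample lay below every VC sample. SLC29A1, the nucleoside transporter ENT1, averaged 54.1 and 47.0 CPM and did not pass (log2 fold change -0.20, adjusted p = 0.0805), but it passed as lower with library size alone and with GC and length offsets.

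IDO1, which starts the breakdown of tryptophan to kynurenine, was near the detection limit in both groups. Its counts were 12, 5 and 8 in the VC samples against 13, 3 and 8 in the VHL-KO samples. The groups overlapped fully, only 1 sample of each reached 10 counts, and the log2 fold change was 0.46 ± 0.68 with a 95% interval of -0.93 to 1.86 and an adjusted p of 0.573 in edgeR. A difference within this interval was not detectable at this depth.

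Genes of tryptophan and kynurenine handling were followed as a list, and those that passed went in both directions. Of the same step as IDO1, IDO2 was too low to test and TDO2 did not pass (log2 fold change 0.41, adjusted p = 0.407 in edgeR). Of the 22 genes listed, 18 were tested, 6 rose, 7 fell and 5 did not pass, with a median log2 fold change of 0.08. Of those tested, 72.2% passed, against 59.7% of all tested genes. The riser GPR35 entered the test only through VHL-KO samples. KMO, which hydroxylates kynurenine, had 30, 32 and 39 counts in the VC samples against 158, 113 and 130 in the VHL-KO samples and rose by 2.53 (adjusted p = 6.77e-10 in edgeR). QPRT, which makes nicotinic acid mononucleotide from quinolinate, rose by 1.07, from 443 to 932 CPM. IL4I1, an amino acid oxidase that also consumes tryptophan, rose by 0.92.

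AHR, the receptor activated by kynurenine, rose by 1.34, with 390, 327 and 514 counts in the VC samples against 819, 743 and 563 in the VHL-KO samples. The groups did not overlap on the CPM scale. AADAT, an aminotransferase that makes kynurenic acid, fell by 1.60. KYNU, which cleaves kynurenine, had 5, 9 and 8 counts in VC and 0 in every VHL-KO sample and was too low to test. With its 22 VC counts taken as exact and a floor of 3 counts over the VHL-KO group, KYNU was at least 5.01-fold lower in VHL-KO cells. The counting error of the VC counts is not in this value, so the true difference may be smaller.

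**Figure D4:**
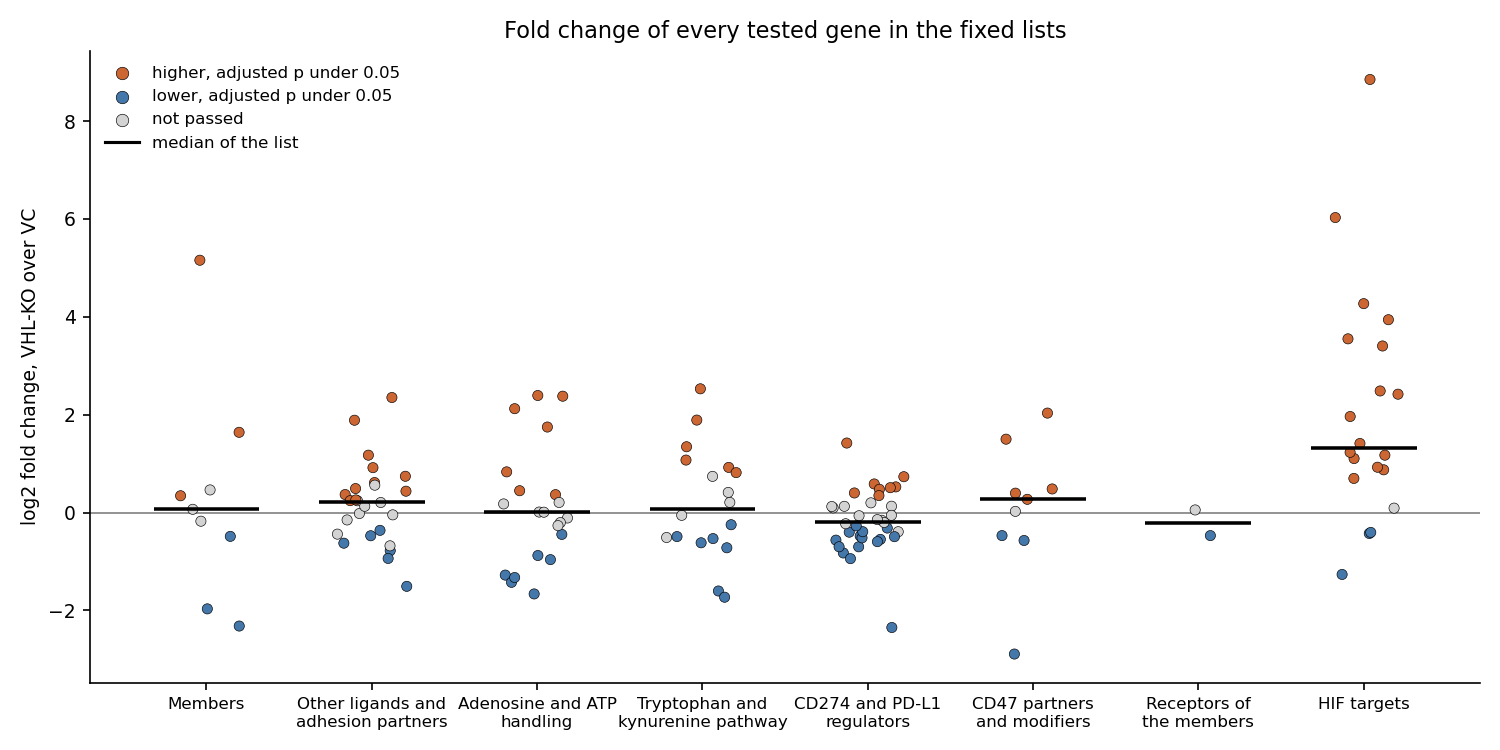
Log2 fold change, VHL-KO over VC, of every tested gene of the 10 members and of the gene lists, orange for genes that rose, blue for genes that fell and grey for genes that did not pass, with the median of each list as a black bar. The lists of cell type markers are not drawn. Medians lie between -0.21 and 0.27 except for the HIF target genes, at 1.32, and the members spread from -2.32 to 5.16 around a median of 0.07.

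Per length, the first 4 of the 10 genes stood in a clear order in VC, and overlaps occurred below them. CD276 led at 88.4 ± 8.24 TPM (SD, n = 3), followed by PVR at 49.1 ± 3.20, NT5E at 26.2 ± 3.67 and CD47 at 10.9 ± 2.36 TPM, and the ranges of these neighbors did not touch. CD274 at 0.982 ± 0.352 TPM and PDCD1LG2 at 0.629 ± 0.108 TPM came next and overlapped each other. IDO1 at 0.238 TPM overlapped VTCN1 at 0.199 TPM, and LGALS9 at 0.0778 TPM overlapped ENTPD1, the lowest at 0.0626 TPM.

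In VHL-KO cells the first 4 places were the same, with CD276 at 83.6 ± 2.80, PVR at 32.4 ± 3.64, NT5E at 13.9 ± 0.99 and CD47 at 8.46 ± 0.27 TPM, again with ranges apart. ENTPD1 moved from place 10 to place 5 at 1.69 TPM and was above VTCN1 (0.472 TPM) in every sample. IDO1 at 0.241, CD274 at 0.182, PDCD1LG2 at 0.0919 and LGALS9 at 0.0536 TPM followed, each overlapping its neighbor in the order. TPM sets genes side by side within a sample. For CD276 (88.4 and 83.6 TPM) and CD47 (10.9 and 8.46 TPM) its group means were ordered opposite to the means in CPM. In TPM the groups of CD276 overlapped and those of PVR did not (47.48, 52.79 and 47.03 TPM in VC, 30.08, 30.54 and 36.6 TPM in VHL-KO cells), the reverse of the CPM scale. By construction, TPM and CPM of a gene differ by its length and by a factor of each sample that is the same for all genes. The change of order is therefore not particular to CD276, CD47 or PVR. TPM leaves out the TMM factors, which were 1.0444 to 1.0889 in VC and 0.9171 to 0.9466 in VHL-KO samples, and divides by the length-scaled sum of the sample. Why these factors differed between the groups was not tested.

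As a share of the summed TPM of the 10 genes, CD276 took 49.95% ± 3.1 (SD, n = 3) in VC and 59.3% ± 1.7 in VHL-KO cells, PVR 27.8% ± 0.9 and 22.9% ± 1.5, and NT5E 14.9% ± 2.3 and 9.87% ± 0.21. CD47 took 6.17% ± 1.47 and 6.001% ± 0.21, and ENTPD1 0.0356% ± 0.0094 and 1.204% ± 0.13. The summed TPM was lower in VHL-KO cells, at 135, 139.5 and 148.9 against 170.6, 184.1 and 175.5 in VC, so the larger share of CD276 came without a higher TPM of CD276. In CPM the sum was 345.6, 374.8 and 344.1 in VC and 376.3, 362.1 and 388.5 in VHL-KO cells, which overlap, so the direction of the sum depends on the scale. The shares of CD276, PVR, NT5E and ENTPD1 did not overlap between the groups, and that of CD47 did.

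**Figure D5:**
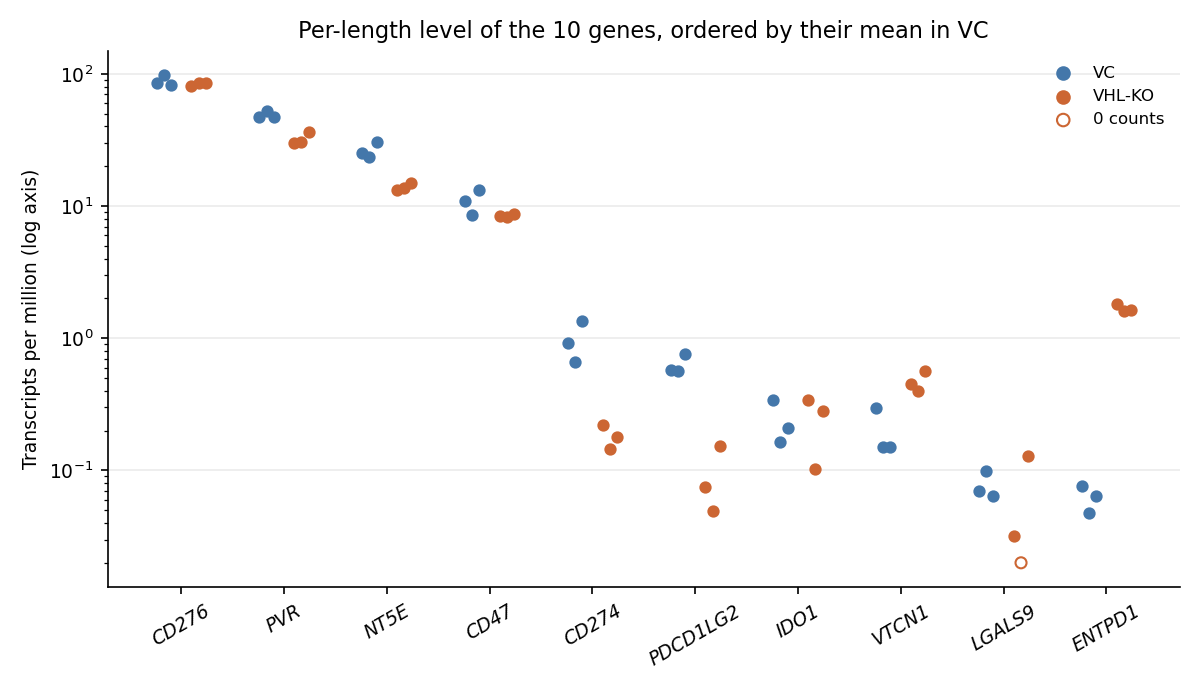
TPM (log axis) of the 10 genes in each sample, ordered by their mean in VC, with VC in blue, VHL-KO in orange and a count of 0 as an open circle at the foot of the axis. CD276, PVR, NT5E and CD47 hold the first 4 places in both groups, and ENTPD1 goes from the lowest place in VC to place 5 in VHL-KO cells.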

How the data were processed

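Total RNA of 3 VC and 3 VHL-KO Caki-1 samples was sequenced on an Illumina NovaSeq. Per the study's methods and the submitters' processing notes, reads were trimmed with Trim Galore and cutadapt, aligned with STAR to GRCh38.p13, kept when they mapped to 1 place (SAMtools) and counted per gene with HTSeq. The deposited values are these raw counts, not normalized. The counting mode, strand setting and tool versions were not given in the sources used here.

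Genes that reached 10 reads in 1 sample or more were tested with edgeR 4.0.16 (R 4.3.3): TMM factors, a quasi-likelihood F test of VHL-KO against VC, two-sided, with Benjamini-Hochberg adjustment over all 17401 tested genes and a threshold of 0.05. On the reported CPM scale, 3 counts, the limit that a count of 0 allows, corresponded to 0.079 CPM in the deepest and 0.141 CPM in the shallowest sample. The 95% counting intervals of ratios were exact binomial intervals and cover counting error only. The floor covers only the counting error of the group with 0 counts and takes the counts of the other group as exact. TPM used merged exon lengths of GENCODE release 44, to which 60463 of 60708 gene IDs matched. Promoters were those of RefSeq. In simulated counts of 17401 genes with little spread between samples, the test called all 100 genes given a log2 fold change of 1 in either direction and all 100 given 2, with 8 false calls. The simulation does not say what would be called at the spread between the samples used here.

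Named genes were the members, VHL, up to 5 genes per list with the largest log2 fold change past the threshold (a mean of at least 50 counts, groups not overlapping), genes named by role, and the nearest tested genes on each side of called members. The rule set 30 genes beyond the members as its limit, and all these groups together exceed it. Some genes of the rule and the lists are counted but not reported by name here. List genes given beyond the rule were chosen after their values were seen. The members and lists were chosen with earlier results of these data known. Alternatives were other scaling factors, DESeq2 1.42.0, other filters, leaving out each sample, a replicate block, GC and length offsets, and other length measures.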

Additional observations from a re-analysis of the deposited data

How the results depend on the processing

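Of 130 log2 fold changes of members under alternative analyses, 116 kept their direction and their side of the threshold, 7 lost their call, 5 gained one and 2 reversed. The reversals were CD47 at -0.13 with library size alone and at -0.057 without VC replicate 2. CD276 lost its call with library size alone (0.15), with GC and length offsets (0.03) and with these offsets and the replicate block (0.03). CD47 gained one with the offsets (0.62, and 0.62 with the block), and PVR with library size alone (-0.37) and with the offsets (-0.15, and -0.15 with the block). Leaving out 1 sample gave log2 fold changes of -2.774 to -2.052 for PDCD1LG2, 1.474 to 2.043 for VTCN1 and -0.057 to 0.236 for CD47. The filter of 10 reads in every sample left 1 member called higher and 1 lower, since it removes genes that are low in either group. CD274, NT5E and ENTPD1 kept their calls wherever they were tested.

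Library size alone shifted the median over all genes to -0.20 and the share of called genes that were higher from 47.7% to 35.8%. Upper quartile factors moved them to 0.10 and 55.0%. With library size alone 4 adenosine genes and 3 CD47 partners were called higher, in place of 7 and 5, and with the offsets 10 other ligands were called lower, in place of 6. Leaving out 1 sample gave 3 to 5 CD47 partners called higher. Among 55 other named genes, 783 of 821 values kept direction and side, and 10 reversed: ITGAV (0.046, and 0.050 with the block), JAK2 (0.20 and 0.20), CMTM6 (0.035 and 0.040) and SNX14 (0.38 and 0.38) with the offsets, and TRIM45 (-0.032) and TCTN3 (-0.14) with library size alone. The causes were not tested.

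Replicate numbers did not pair the samples, since deviations of equal numbers correlated at 0.17, -0.09 and 0.06. The replicate block called 10284 genes in place of 10394, and 3 members higher and 3 lower as without it.

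With the longest transcript as length, the share of CD276 was 53.9% in VC and 63.0% in VHL-KO cells, of PVR 29.1% in VC, of NT5E 11.2% and 7.29%, of CD47 4.64% in VHL-KO cells and of ENTPD1 0.883% in VHL-KO cells. Depth limited LGALS9, IDO1, VTCN1 and PDCD1LG2 most, each with at most 20 counts in any sample.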

Other observations

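Interferon signaling genes upstream of CD274 did not move one way. STAT2 and STAT3 rose by 0.53 and 0.48 on the log2 scale, IFNGR1 rose by 0.58 and IRF9 by 1.42 from 0.375 to 1.02 CPM, whereas JAK1 fell by 0.55 and IRF2 by 0.32, each past the threshold in edgeR. WARS1, an interferon-induced tRNA synthetase that charges tryptophan, fell by 0.72 from 88.5 to 53.7 CPM. Of genes that AHR is known to induce, CYP1B1 rose by 0.82 and CYP1A1 fell by 1.73, with 48, 40 and 55 counts in the VC samples against 8, 19 and 2 in the VHL-KO samples, and TIPARP fell by 0.49. AHRR, another such gene, had a log2 fold change of 0.74 that did not pass (adjusted p = 0.125), with groups apart. SLC7A5 and SLC3A2, the subunits of a transporter that carries tryptophan and kynurenine, fell by 0.62 and 0.25. CD70, a TNF-family ligand known for its expression in clear cell renal carcinoma, rose by 0.26 from 417 to 499 CPM. These genes were chosen after their values were seen.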
